A study of Mus musculus with 12 samples.

Results

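Beta-catenin and a group of genes that act beside it in the nucleus, or that are switched on by it, were measured in whole mouse embryos collected at E12.5. The 10 genes are *Ctnnb1*, which encodes beta-catenin, the TCF/LEF factor genes *Lef1*, *Tcf7*, *Tcf7l1* and *Tcf7l2*, and the target genes *Axin2*, *Nkd1*, *Dkk1*, *Lgr5* and *Sp5*. They form a list of names with no threshold on a measured value, and all 10 stand among the 23420 genes listed in both tables of counts. RNA was sequenced from 12 embryos, 3 in each of 4 groups. In the *Carm1* line, of strain C57BL/6, *Carm1* KO/KO embryos (labelled *Carm1* null, allele Carm1tm1Mtb, which lacks exons 2 and 3) were compared with wild-type embryos. In the *Pax3* line, a closed colony of mixed strain kept in another laboratory, *Pax3* Sp2H/Sp2H embryos (labelled *Pax3* null, the Splotch allele) were compared with wild-type embryos. Both mutants came from intercrosses of heterozygous mice, both alleles are carried in every cell of the embryo, and no further allele or treatment is given for any group. *Carm1* encodes an arginine methyltransferase and *Pax3* a paired-box transcription factor of the dorsal neural tube, neural crest and muscle precursors. The study set the lines side by side to ask how far the loss of *Carm1* resembles the loss of *Pax3*.

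Canonical Wnt signalling works through the stability of beta-catenin. Without a Wnt ligand, a destruction complex built on axin, APC and glycogen synthase kinase 3 marks beta-catenin for degradation. With a ligand, beta-catenin accumulates, enters the nucleus and binds TCF/LEF factors, which recognize a short DNA motif, and turns on genes such as *Axin2*. Several of these targets encode inhibitors of the pathway and so form negative feedback. In the embryo the pathway is known for roles in the dorsal neural tube, limb, tail bud, neural crest and heart progenitors. Beta-catenin also joins cadherins to the actin cytoskeleton at cell contacts. Its activity is set mainly by protein stability, and these libraries measured RNA.

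The motif that TCF/LEF factors recognize was searched for in the promoters of the 10 genes, as the letters CTTTGAT or their reverse complement ATCAAAG, in the 250 bases before each transcript start of the RefSeq promoter table (GRCm38.p6, which has the coordinates of mm10). The core letters CTTTG or CAAAG, which lie within the longer motif, were counted as well. Promoters of 9 of the 10 genes were matched, in 15 windows, and *Lgr5* had no entry. The longer motif stood in 1 of the 15 windows, that of *Sp5*, against 3.21% of all 32851 windows of this length. The core stood in 9 of the 15 windows, against 48.6% of all windows, in 5 of the 9 matched genes, *Lef1*, *Tcf7l1*, *Tcf7l2*, *Dkk1* and *Sp5*. Windows are not independent, since the first and second windows of *Lef1* overlap and share a core. These matches describe letters and not sites of binding. The windows of *Sp5* and of the 4 genes whose RNA passed the test in either line are printed 5′ to 3′ on the strand of the gene, in lower case with the motif or its core in capitals. The *Sp5* window is chr2:70474673-70474922 (+ strand), the *Axin2* window chr11:108920099-108920348 (+ strand), the *Nkd1* window chr8:88527383-88527632 (+ strand), the first of 2 *Tcf7l2* windows chr19:55741560-55741809 (+ strand) and the *Tcf7l1* window chr6:72789046-72789295 (- strand). The *Axin2* and *Sp5* windows end at the base before the gene as GENCODE annotates it, and the *Nkd1* window lies within the annotated gene. On the - strand the annotated *Tcf7l1* gene begins at 72789254, so most of the *Tcf7l1* window, its core included, lies within that gene.
Sp5: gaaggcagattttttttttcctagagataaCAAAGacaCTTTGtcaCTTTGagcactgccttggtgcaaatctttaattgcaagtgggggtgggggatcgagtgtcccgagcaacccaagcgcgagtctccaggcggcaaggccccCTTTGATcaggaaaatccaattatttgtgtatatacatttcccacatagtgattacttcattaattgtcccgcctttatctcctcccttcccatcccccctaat
Axin2: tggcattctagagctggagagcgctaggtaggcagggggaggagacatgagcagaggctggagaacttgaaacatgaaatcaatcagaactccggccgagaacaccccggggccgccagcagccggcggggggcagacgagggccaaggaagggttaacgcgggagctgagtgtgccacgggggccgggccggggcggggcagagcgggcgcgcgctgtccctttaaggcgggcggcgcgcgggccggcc
Nkd1: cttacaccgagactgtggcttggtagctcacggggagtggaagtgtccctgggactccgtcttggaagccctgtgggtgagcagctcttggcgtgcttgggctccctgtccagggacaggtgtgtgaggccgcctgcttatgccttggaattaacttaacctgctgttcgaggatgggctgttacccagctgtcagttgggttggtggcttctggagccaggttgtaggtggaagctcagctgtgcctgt
Tcf7l2: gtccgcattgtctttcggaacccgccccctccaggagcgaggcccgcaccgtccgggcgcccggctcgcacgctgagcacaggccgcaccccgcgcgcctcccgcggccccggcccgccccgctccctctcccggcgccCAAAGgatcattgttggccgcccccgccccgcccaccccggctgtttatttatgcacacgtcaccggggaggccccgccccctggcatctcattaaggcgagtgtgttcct
Tcf7l1: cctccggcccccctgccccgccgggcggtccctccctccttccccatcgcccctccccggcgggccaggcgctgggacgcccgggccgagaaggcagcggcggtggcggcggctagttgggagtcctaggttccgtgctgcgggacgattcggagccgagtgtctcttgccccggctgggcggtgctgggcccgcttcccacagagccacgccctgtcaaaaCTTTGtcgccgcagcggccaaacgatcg
The first base of the longer motif in *Sp5* lies at -104, where -1 is the base before the transcript start, and 3 further cores lie at -220, -212 and -204. The windows of *Axin2* and *Nkd1*, which hold neither form, carry no capitals. The core in the printed *Tcf7l2* window lies at -111 and that of *Tcf7l1* at -28. The second *Tcf7l2* window, chr19:55895071-55895320, is not printed and holds a core at -14.

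Each library held between 17183344 and 23518692 counts. No library was a copy of another: pairs of replicates gave chi-square values of 3.07 to 23.2 per degree of freedom. At least 100 counts on 4 Y-linked genes were found in 4 libraries, namely wild-type replicate 3 of the *Carm1* line and wild-type replicates 2 and 3 and Sp2H/Sp2H replicate 3 of the *Pax3* line. The targeted gene was lower in each mutant. *Carm1* had 71.3, 69.3 and 76.2 CPM, that is counts scaled to the depth of the library, in *Carm1* KO/KO replicates 1 to 3 and 151, 145 and 137 CPM in wild-type replicates, and *Pax3* had 22.4, 22.0 and 18.1 CPM in *Pax3* Sp2H/Sp2H and 30.9, 25.0 and 28.3 CPM in wild-type replicates. *Pax3* itself was higher in the *Carm1* KO/KO group (log FC 0.37, SE 0.078, FDR adjusted P = 0.0010). CPM values are scaled by TMM within each line, log FC is the log2 of the ratio of mutant over wild type, SE its standard error, and the test is the quasi-likelihood test of edgeR with Benjamini-Hochberg adjustment over all genes tested at a threshold of 0.05.

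All 10 genes were detected in every library, and their levels differed widely. Per kilobase of the longest annotated transcript, *Ctnnb1* had the highest level in each group, with a mean between 329 and 400 CPM per kb. *Axin2*, *Tcf7l2* and *Tcf7l1* followed at means of 20.0 to 25.8 CPM per kb, in an order that changed between groups. *Nkd1* lay between 15.4 and 20.3 CPM per kb, *Lef1* between 14.2 and 16.6 CPM per kb, and *Tcf7* between 5.04 and 5.75 CPM per kb. *Lgr5*, *Dkk1* and *Sp5* were the lowest, all with means from 1.97 to 3.45 CPM per kb. The libraries of *Lgr5* and *Dkk1* overlapped in both groups of the *Pax3* line and those of *Dkk1* and *Sp5* overlapped in *Carm1* KO/KO embryos, so these neighbours could not be ranked there. In *Pax3* Sp2H/Sp2H embryos the same held for *Lgr5* and *Sp5*, and for *Tcf7l2* and *Nkd1*. By this length *Nkd1* and *Lef1* overlapped in both wild-type groups and stood apart in both mutants. Reads were counted on all exons of a gene, which together span 8788 bases for *Lef1*, against 3656 in its longest transcript. For *Nkd1* these are 4558 and 4081 bases, for *Tcf7l2* 8775 and 3715, and for *Lgr5* 10264 and 4793. The order below *Ctnnb1*, and the overlap of *Nkd1* with *Lef1*, therefore depend on the length used. In raw counts *Ctnnb1* held 20020 to 32771 reads per library, whereas *Dkk1* held 84 to 186 and *Sp5* 70 to 124. The coefficient of variation over replicates was 1.72 to 3.44% for *Ctnnb1* and 6.51 to 18.4% for *Dkk1*, for which counting alone gives 7.60 to 10.4%.

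**Figure D1:**
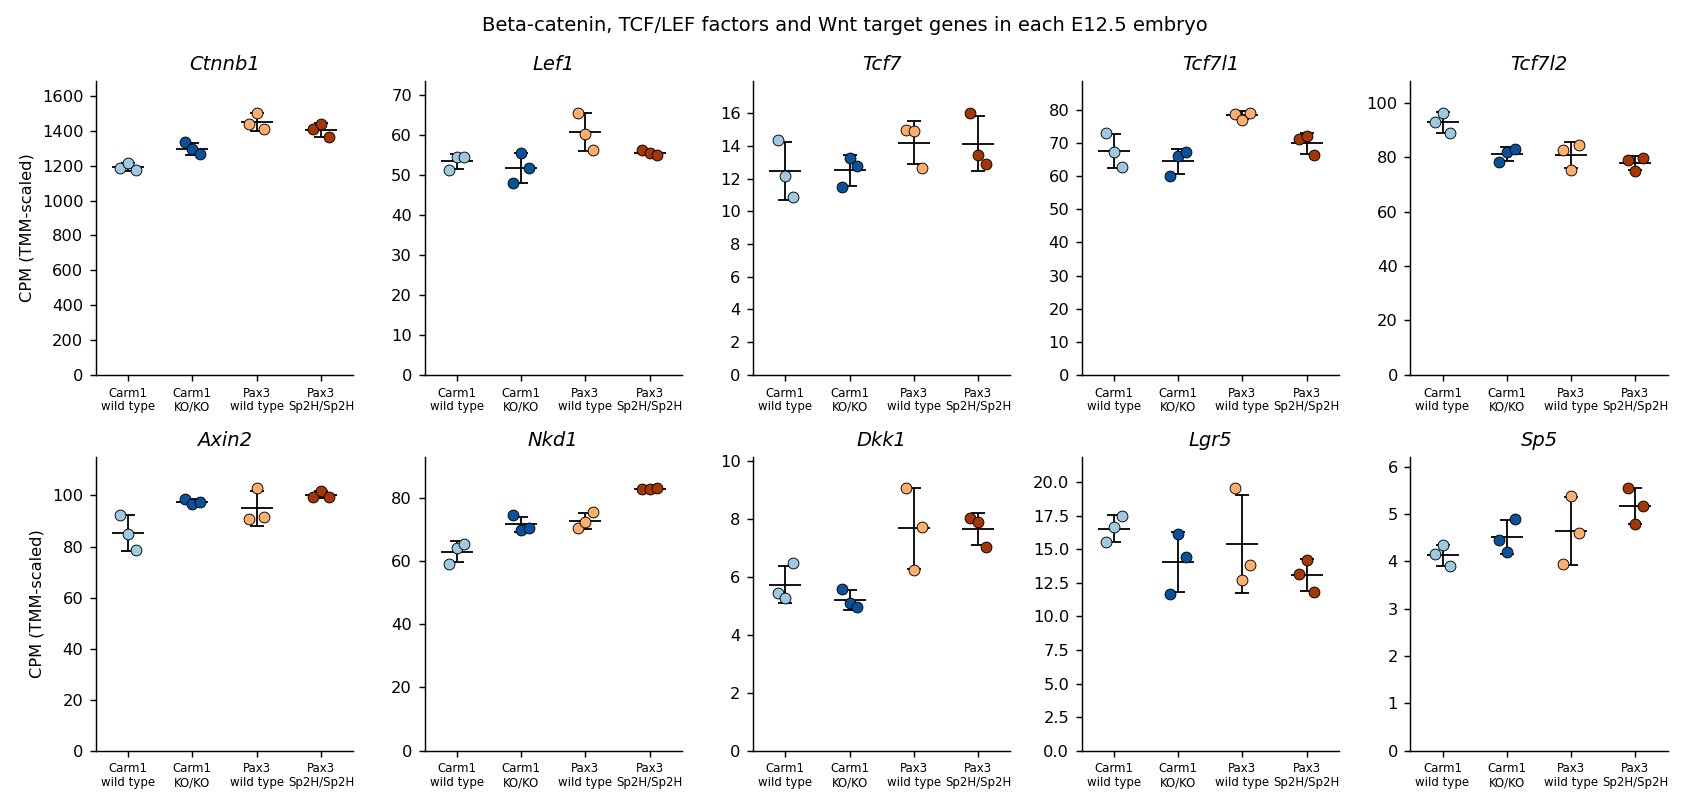
CPM of each of the 10 genes in every embryo, with 1 point per library, 4 groups of 3 libraries per panel and a bar for the mean ± SD; each y axis starts at 0 and has its own scale. The 3 *Carm1* KO/KO points of *Axin2* and *Nkd1* lie above the wild-type points of that line and those of *Tcf7l2* below, and in the *Pax3* line the 3 Sp2H/Sp2H points of *Nkd1* lie above and those of *Tcf7l1* below.

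In *Carm1* KO/KO embryos the feedback genes *Axin2* and *Nkd1* were higher than in wild type, by 1.15-fold and 1.14-fold, and the TCF factor gene *Tcf7l2* was lower, at 0.873 of the wild-type level. The other 7 genes did not pass the test. The 3 called genes are 30% of the 10, against 13.3% of the 15811 genes tested in this line, 5.49% called higher and 7.83% called lower. The median log FC of the 10 genes was -0.02, against 0.00 over all genes tested. Since whole embryos were used, a lower level can be fewer cells of a type or less RNA per cell, and these cannot be told apart.

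*Ctnnb1* (chromosome 9, 120929216 to 120960507, + strand) had 1333, 1296 and 1265 CPM in *Carm1* KO/KO replicates 1 to 3 and 1187, 1215 and 1175 CPM in wild-type replicates. Every KO/KO library lay above every wild-type library. The log FC was 0.12 (SE 0.047, 95% confidence interval 0.027 to 0.22, FDR adjusted P = 0.081), so the gene did not pass. The study used DESeq2 and reported increased expression of this gene. Here *Ctnnb1* passed with DESeq2 (FDR adjusted P = 0.0072) and when each library was corrected for transcript length and GC content by offsets (FDR adjusted P = 0.0036), and in none of the other 13 alternatives. Both of these called 4 of the 10 genes, *Ctnnb1* beside the 3 above, against 8.95% of all genes with DESeq2 and 20.3% with offsets. The groups did not overlap in 4 of the 10 genes, 3 higher (*Ctnnb1*, *Axin2* and *Nkd1*) and 1 lower (*Tcf7l2*), against 30% of the genes tested, 14.2% higher and 15.7% lower.

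*Tcf7l2* encodes the TCF factor that partners beta-catenin in gut, brain and many other tissues (chromosome 19, 55741820 to 55933654, + strand). This gene had 78.2, 81.9 and 83.1 CPM in KO/KO replicates 1 to 3 and 93.0, 96.5 and 88.9 CPM in wild-type replicates, with no overlap between the groups. The log FC was -0.20 (SE 0.050, FDR adjusted P = 0.0066), and the call was lost without KO/KO replicate 1 (FDR adjusted P = 0.067) and without wild-type replicate 2 (FDR adjusted P = 0.078). The other TCF/LEF genes overlapped between the groups. *Tcf7l1*, mainly known as a repressor (chromosome 6, 72626378 to 72789254, - strand), had 60.1, 66.0 and 67.2 CPM in KO/KO and 73.0, 67.2 and 62.7 CPM in wild-type replicates, a log FC of -0.07 (95% confidence interval -0.19 to 0.050). *Lef1* (chromosome 3, 131110471 to 131224356, + strand) had 48.0, 55.6 and 51.8 CPM in KO/KO and 51.2, 54.5 and 54.6 CPM in wild-type replicates, a log FC of -0.05 (95% confidence interval -0.17 to 0.072). *Tcf7* (chromosome 11, 52252371 to 52283014, - strand) had 11.5, 13.3 and 12.8 CPM in KO/KO and 14.4, 12.2 and 10.9 CPM in wild-type replicates, a log FC of 0.01 (95% confidence interval -0.21 to 0.24).

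*Axin2* encodes a scaffold of the destruction complex and is a direct target that feeds back on the pathway (chromosome 11, 108920349 to 108950783, + strand). It had 98.6, 96.8 and 97.4 CPM in KO/KO replicates 1 to 3 and 92.4, 85.1 and 78.4 CPM in wild-type replicates. The KO/KO libraries lay within 2 CPM of each other, and wild-type replicate 1 came closest to them. The coefficient of variation of the KO/KO libraries was 0.945%, below the 2.41% that counting alone gives. Their closeness is therefore no measure of the spread between embryos. The log FC was 0.20 (SE 0.052, FDR adjusted P = 0.0099). Wild-type replicate 3, the lowest, was the only library of this line with Y-linked counts, and without it the log FC was 0.14 (FDR adjusted P = 0.065). A term for Y-linked counts marks only that library in this line, so it repeats the same check (FDR adjusted P = 0.066). The call was also lost without KO/KO replicate 1 (FDR adjusted P = 0.059).

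*Nkd1* encodes a cytoplasmic protein that binds dishevelled and dampens Wnt signals (chromosome 8, 88521354 to 88594884, + strand). It had 74.4, 70.0 and 70.5 CPM in KO/KO replicates 1 to 3 and 59.2, 64.2 and 65.3 CPM in wild-type replicates, again without overlap. The log FC was 0.19 (SE 0.053, FDR adjusted P = 0.017). The call was lost without KO/KO replicate 1 (FDR adjusted P = 0.12) and without wild-type replicate 1 (FDR adjusted P = 0.058). Without KO/KO replicate 1 none of the 10 genes was called by edgeR, with 3 at an unadjusted P under 0.05, when 7.64% of all genes were called.

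The remaining targets were low and overlapped between the groups. *Lgr5*, a receptor for R-spondins and a marker of stem cells (chromosome 10, 115450311 to 115587780, - strand), had 11.7, 16.1 and 14.4 CPM in KO/KO and 15.5, 16.6 and 17.5 CPM in wild-type replicates. Its log FC was -0.24 (95% confidence interval -0.45 to -0.028, FDR adjusted P = 0.13), larger in size than that of any called gene of the 10 but with an SE of 0.10. *Dkk1*, a secreted inhibitor that binds the co-receptor *Lrp6* (chromosome 19, 30545863 to 30549665, - strand), had 5.60, 5.10 and 4.95 CPM in KO/KO and 5.46, 5.29 and 6.48 CPM in wild-type replicates. *Sp5*, a zinc-finger transcription factor gene (chromosome 2, 70474923 to 70477729, + strand), had 4.44, 4.20 and 4.89 CPM in KO/KO and 4.15, 4.34 and 3.90 CPM in wild-type replicates. By edgeR the 95% confidence interval of *Sp5*, -0.22 to 0.47, holds changes of the size seen in *Axin2* and *Nkd1*. That of *Dkk1*, -0.45 to 0.17, ends just below them, but this bound depends on the fit. The log FC of *Dkk1* was -0.14 (SE 0.19) with DESeq2 and -0.04 (SE 0.17) without wild-type replicate 3. Changes of that size therefore stay possible for *Dkk1* as well.

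In the same line, where 13.3% of all genes tested were called, several gene lists that mark tissues moved as well. All 5 neural progenitor markers were called higher in *Carm1* KO/KO embryos, with a summed level of 915 to 957 CPM against 679 to 716 CPM in wild type. Of 5 roof plate markers, a dorsal source of Wnt ligands, 1 was called higher (*Lmx1a*), and the sum was 46.4 to 48.4 CPM against 33.5 to 37.6 CPM. All 5 hepatocyte markers were called lower (691 to 799 CPM against 1294 to 1566 CPM), as were the 4 of 5 skeletal muscle markers that were tested (192 to 195 CPM against 271 to 286 CPM for all 5) and 3 of 5 surface ectoderm markers (128 to 135 CPM against 172 to 181 CPM). Of 5 erythroid markers 3 were called lower, but their summed level overlapped between the groups (6652 to 7954 CPM, median 7141, against 4580 to 8508 CPM, median 6411), and DESeq2 called 1 higher and 2 lower and offsets 1 lower. Of 5 endothelial markers 2 were called higher. Of 5 apical ectodermal ridge markers 1 was called higher (*Fgf8*), and of 4 tested tail bud markers 1 (*Nkx1-2*). None of the 5 neural crest glia markers was called by edgeR, at an unadjusted P under 0.05 or by DESeq2. The part of these shifts in the changes of *Axin2*, *Nkd1* and *Tcf7l2* was not tested.

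In *Pax3* Sp2H/Sp2H embryos *Nkd1* was again higher, by 1.14-fold, and the TCF factor gene *Tcf7l1* was lower, at 0.892 of the wild-type level. These 2 genes are 20% of the 10, below the 24.5% of 15724 genes called in this line, of which 14% were higher and 10.5% lower. The median log FC of the 10 genes was -0.03, against -0.00 over all genes tested. All 4 TCF/LEF genes had a negative log FC, and of these *Tcf7l1* alone passed the test; the sign of *Tcf7*, at -0.00, turned in 6 of 15 alternatives.

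*Nkd1* had 82.7, 82.7 and 83.0 CPM in Sp2H/Sp2H replicates 1 to 3 and 70.3, 72.3 and 75.4 CPM in wild-type replicates, with no overlap. The coefficient of variation of the Sp2H/Sp2H libraries was 0.238%, below the 2.31% that counting alone gives, so their closeness is no measure of the spread between embryos. The log FC was 0.19 (SE 0.056, FDR adjusted P = 0.015), and the call was lost without Sp2H/Sp2H replicate 1 (FDR adjusted P = 0.056) and without replicate 3 (FDR adjusted P = 0.074). *Tcf7l1* had 71.2, 72.3 and 66.4 CPM in Sp2H/Sp2H and 78.8, 77.0 and 79.2 CPM in wild-type replicates. Each mutant library lay below each wild-type library. The log FC was -0.16 (SE 0.058, FDR adjusted P = 0.038). With DESeq2, with at least 10 counts in every library and with no filter on low counts its FDR adjusted P was 0.052, 0.051 and 0.052, and the call was also lost without Sp2H/Sp2H replicates 1 and 3 (0.084 and 0.21) and wild-type replicates 1 and 3 (0.057 and 0.10). With length and GC offsets the log FC of *Tcf7l1* was -0.30 (FDR adjusted P = 2.0e-04). *Nkd1* was the gene called by DESeq2, which called 23% of all genes, and offsets called *Nkd1* and *Tcf7l1* (16.5% of all genes).

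Among the other genes of this line, *Lef1* was the only one whose groups did not overlap, with 56.1, 55.5 and 55.1 CPM in Sp2H/Sp2H and 65.6, 60.3 and 56.3 CPM in wild-type replicates, and it did not pass the test (log FC -0.13, FDR adjusted P = 0.14). Its Sp2H/Sp2H libraries had a coefficient of variation of 0.984%, below the 2.82% that counting alone gives. Non-overlapping groups were found for 3 of the 10 genes, 1 higher (*Nkd1*) and 2 lower (*Tcf7l1* and *Lef1*), and for 39.6% of all genes tested, 20.7% higher and 18.9% lower. *Ctnnb1* had 1408, 1441 and 1363 CPM in Sp2H/Sp2H and 1438, 1505 and 1408 CPM in wild-type replicates, a log FC of -0.05 (95% confidence interval -0.18 to 0.089). *Axin2* had 99.5, 102 and 99.4 CPM against 90.7, 103 and 91.4 CPM, so that 1 wild-type library lay above all mutant ones, and a log FC of 0.08 (95% confidence interval -0.039 to 0.20, FDR adjusted P = 0.34). *Tcf7l2* had 79.0, 75.1 and 79.6 CPM against 82.5, 75.4 and 84.5 CPM, a log FC of -0.05 (95% confidence interval -0.17 to 0.067).

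*Tcf7*, *Dkk1*, *Lgr5* and *Sp5* also overlapped between the groups of the *Pax3* line. *Tcf7* had 16.0, 13.5 and 12.9 CPM in Sp2H/Sp2H and 15.0, 14.9 and 12.7 CPM in wild-type replicates. *Dkk1* had 8.05, 7.92 and 7.04 CPM against 9.08, 6.25 and 7.73 CPM, and *Sp5* 5.54, 4.78 and 5.18 CPM against 3.95, 5.39 and 4.60 CPM. *Lgr5* had 13.2, 14.2 and 11.8 CPM against 19.6, 12.7 and 13.9 CPM, where wild-type replicate 1 stood above the rest, and a log FC of -0.24 (95% confidence interval -0.52 to 0.040, FDR adjusted P = 0.21). When Y-linked counts entered the model, *Lgr5* passed (log FC -0.35, FDR adjusted P = 0.013), and without wild-type replicate 1 its log FC was -0.03 (FDR adjusted P = 0.88).

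**Figure D2:**
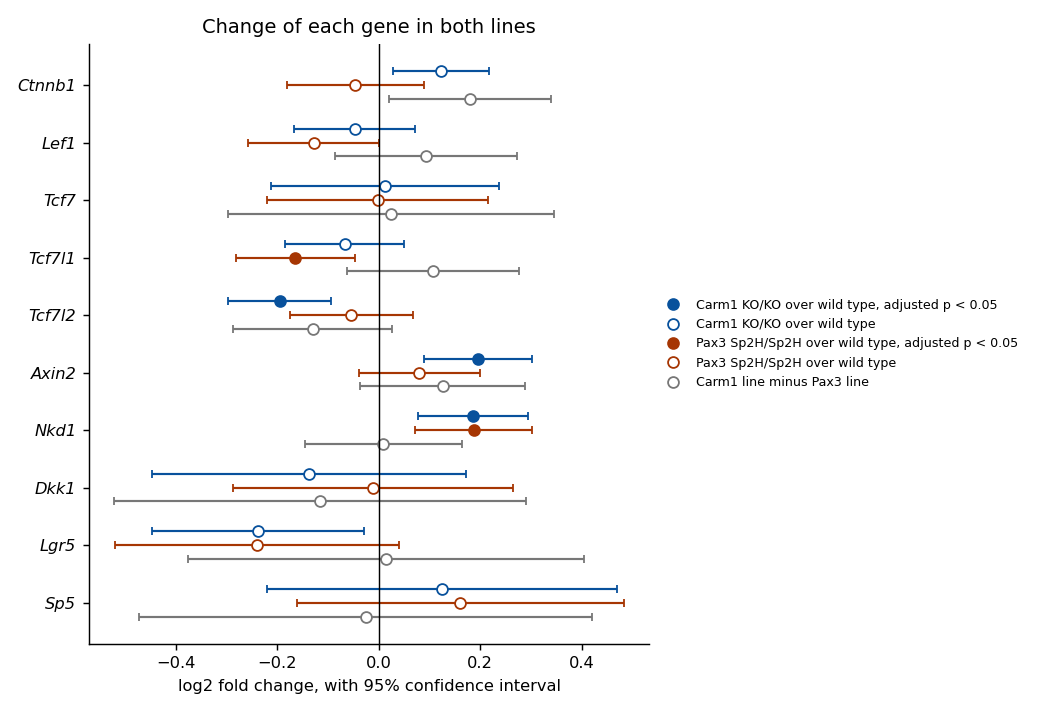
Log FC of each gene in the *Carm1* line, in the *Pax3* line and the difference between them, with 95% confidence intervals; filled points have an adjusted P below 0.05. *Axin2*, *Nkd1* and *Tcf7l2* are filled in the *Carm1* line and *Nkd1* and *Tcf7l1* in the *Pax3* line, and no difference between the lines is filled.

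Several marker lists also differed in the *Pax3* line, where 24.5% of all genes tested were called. Of 5 neural progenitor markers 3 were called higher (764 to 851 CPM in Sp2H/Sp2H against 701 to 760 CPM in wild type), and of 5 roof plate markers 2, *Msx1* and *Gdf7* (58.1 to 60.4 CPM against 45.6 to 52.8 CPM). Neural crest glia markers were lower in 3 of 5 (64.1 to 65.3 CPM against 93.6 to 99.5 CPM) and skeletal muscle markers in 4 of 4 tested (87.6 to 104 CPM against 159 to 174 CPM for all 5). Of 5 hepatocyte markers 1 was called lower (*Afp*), of 5 surface ectoderm markers 1 was called higher (*Krt15*) and of 4 tested apical ectodermal ridge markers 1 was called higher (*Fgf8*). Those single calls are 20%, 20% and 25% of their lists, near the share of all genes. Summed levels did not overlap for hepatocyte markers (777 to 859 CPM in Sp2H/Sp2H against 935 to 1136 CPM) or surface ectoderm markers (138 to 160 CPM against 111 to 134 CPM). Yet 2 of the 5 hepatocyte markers had a positive log FC and 2 of the 5 surface ectoderm markers a negative one. DESeq2 called 2 surface ectoderm markers higher, and offsets called 1 higher and 1 lower. Neither DESeq2 nor offsets called any apical ectodermal ridge marker. No marker of the erythroid, endothelial or tail bud lists was called in this line by edgeR or DESeq2, with 2 endothelial and 2 tail bud markers at an unadjusted P under 0.05. The part of these markers in the changes of *Nkd1* and *Tcf7l1* was not tested.

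The change in the *Carm1* line was set against that in the *Pax3* line by an interaction term over the 12 libraries, which called 19.1% of 16292 genes. None of the 10 genes was called by edgeR, 1 had an unadjusted P under 0.05, and DESeq2 called 1; both times the gene was *Ctnnb1*. DESeq2 called 19% of all genes there, and offsets called 17.7% and, of the 10 genes, *Tcf7l1* (difference 0.24, FDR adjusted P = 0.018). For *Ctnnb1* the log FC was larger in the *Carm1* line by 0.18 (95% confidence interval 0.020 to 0.34, FDR adjusted P = 0.11). For *Nkd1*, called higher in both lines, the difference was 0.01 (95% confidence interval -0.15 to 0.16), whereas for *Axin2* it was 0.13 (95% confidence interval -0.036 to 0.29), for *Tcf7l2* -0.13 (95% confidence interval -0.29 to 0.027) and for *Tcf7l1* 0.11 (95% confidence interval -0.062 to 0.28). Calls in 1 line only, as for *Axin2*, *Tcf7l2* and *Tcf7l1*, were therefore not shown to differ between the lines. Strain and laboratory differ with the line.

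**Figure D3:**
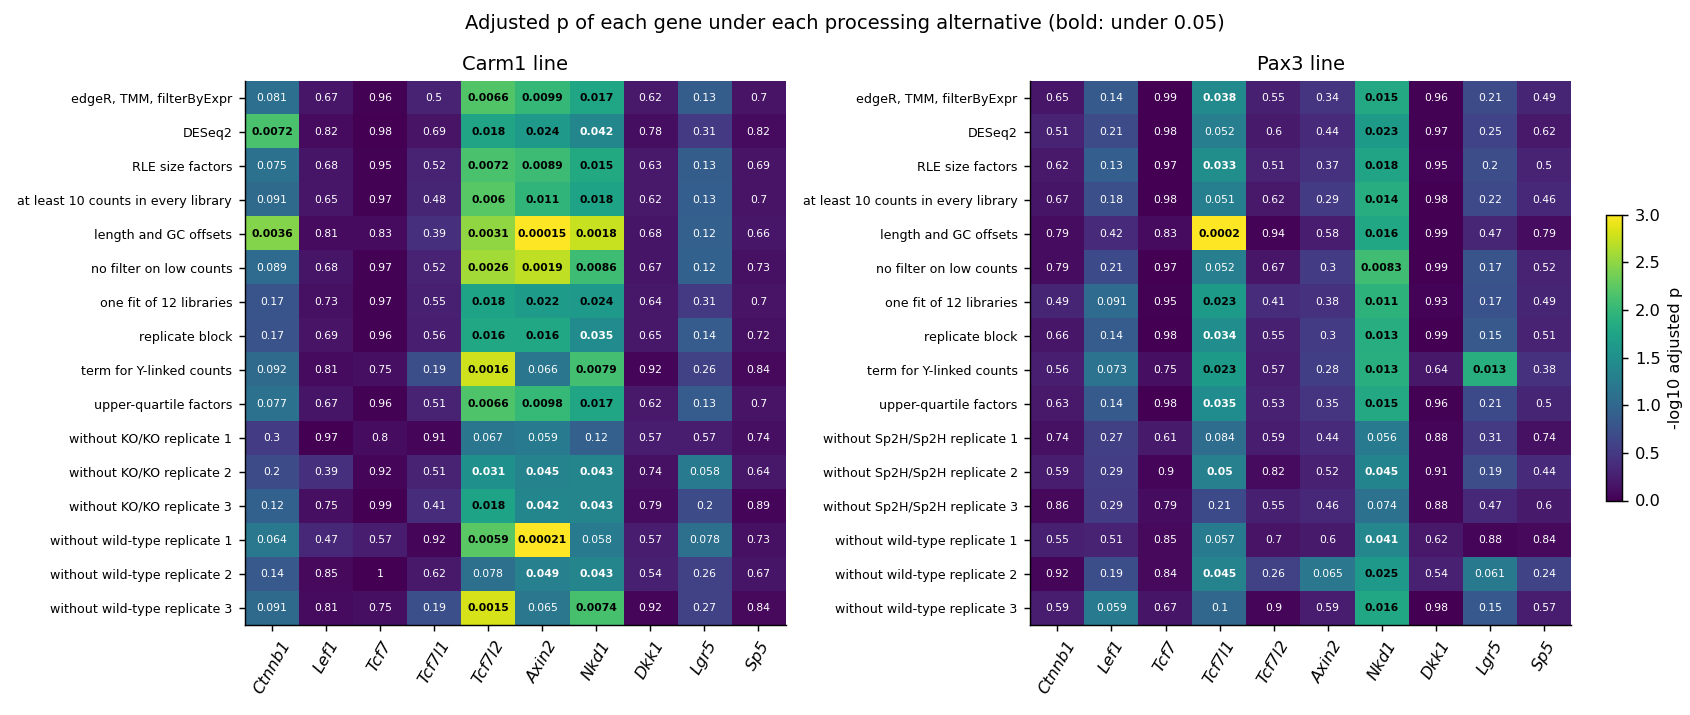
FDR adjusted P of each of the 10 genes (columns) under each way of processing the counts (lines), for the *Carm1* line on the left and the *Pax3* line on the right; the color gives -log10 of the adjusted P and values below 0.05 are bold. Calls are lost mostly where a library is left out, as for *Axin2* without KO/KO replicate 1 (0.059), and *Tcf7l1* in the *Pax3* line lies at 0.052 with DESeq2.

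The rest of the pathway was read from 94 genes grouped by role, of which 91 were tested in each line. In the *Carm1* line 13 were called higher and 7 lower, and in the *Pax3* line 13 higher and 8 lower, which is 22% and 23.1% of those tested, against 13.3% and 24.5% of all genes tested. The share in the *Pax3* line was thus no higher than that of all genes. With the length and GC offsets the split was 25 higher and 8 lower in the *Carm1* line, where the same choice turned the calls over all genes from 868 higher and 1238 lower to 1913 higher and 1295 lower, and 9 higher and 6 lower in the *Pax3* line. The median log FC of these genes was 0.02 in the *Carm1* line and 0.01 in the *Pax3* line.

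Wnt ligands were called in 5 of 18 cases in each line, 27.8%, where all genes gave 13.3% in the *Carm1* line and 24.5% in the *Pax3* line. In the *Carm1* line *Wnt8b*, *Wnt5b*, *Wnt2b* and *Wnt7b* were higher and *Wnt10b* was lower, and in the *Pax3* line *Wnt11*, *Wnt7a*, *Wnt5b*, *Wnt6* and *Wnt4* were higher; with offsets 5 were higher and 1 lower in the *Carm1* line and 2 higher in the *Pax3* line. *Wnt8b*, a ligand of the forebrain, had 8.71 ± 1.37 CPM in *Carm1* mutants against 5.68 ± 0.591 CPM (mean ± SD of 3 libraries, as for all values given with ±), a log FC of 0.61 (FDR adjusted P = 0.0029; 0.051 without KO/KO replicate 1). *Wnt5b*, which mostly signals without beta-catenin, was higher in both lines by 0.34 on the log2 scale (FDR adjusted P = 0.013 and 0.014). *Wnt2b* was higher by 0.33 in the *Carm1* line (FDR adjusted P = 0.013). Both lost their call in the *Carm1* line without wild-type replicate 3 (FDR adjusted P = 0.088 for *Wnt5b* and 0.071 for *Wnt2b*). The Y-linked term repeats that check (0.089 and 0.074). Both also lost it without KO/KO replicate 3 (0.050 and 0.068), *Wnt5b* without KO/KO replicate 1 (0.075) and *Wnt2b* without KO/KO replicate 2 (0.098). *Wnt10b* was low, at 3.69 ± 0.0437 CPM in the wild type of that line and 2.26 ± 0.215 CPM in its mutants, and its log FC of -0.71 (FDR adjusted P = 0.017) was not called by DESeq2 (FDR adjusted P = 0.065) or without KO/KO replicate 2 or wild-type replicate 2 (FDR adjusted P = 0.084 and 0.062). *Wnt11* rose in *Pax3* Sp2H/Sp2H embryos from 18.6 ± 1.96 to 25.2 ± 2.18 CPM, a log FC of 0.45 (FDR adjusted P = 8.2e-04). Neither *Porcn* nor *Wls*, which act in Wnt secretion, was called by edgeR or DESeq2 or had an unadjusted P under 0.05 in either line.

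Frizzled receptors, Lrp co-receptors and dishevelled genes, 15 in all, had 2 higher in the *Carm1* line (*Fzd3* and *Fzd10*) and 3 higher in the *Pax3* line (*Fzd2*, *Dvl1* and *Dvl2*), and with offsets the *Carm1* line had 4 higher and 1 lower. The edgeR calls are 13.3% of the 15 in the *Carm1* line and 20% in the *Pax3* line, against 13.3% and 24.5% of all genes tested. *Fzd10* rose from 50.1 ± 3.48 to 60.6 ± 2.77 CPM in *Carm1* KO/KO embryos, a log FC of 0.28 (FDR adjusted P = 0.0010). *Dvl1*, which relays the signal from the receptor, rose from 67.3 ± 4.97 to 88.3 ± 1.52 CPM in *Pax3* Sp2H/Sp2H embryos, a log FC of 0.39 (FDR adjusted P = 2.6e-05). Of 8 genes of the R-spondin arm, *Lgr6* was called lower in the *Carm1* line (log FC -0.87, FDR adjusted P = 0.026, not called by DESeq2 or without KO/KO replicate 2, KO/KO replicate 3 or wild-type replicate 2) and none in the *Pax3* line by edgeR or DESeq2, with 1 at an unadjusted P under 0.05. The call of *Lgr6* is 12.5% of that arm, near the 13.3% of all genes called in the *Carm1* line.

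Secreted antagonists had 2 higher and 4 lower of 14 in the *Carm1* line, which is 42.9%, against 13.3% of all genes tested. *Frzb* rose from 22.3 ± 0.769 to 31.5 ± 2.63 CPM (log FC 0.50, FDR adjusted P = 1.8e-05) and *Sfrp1* also rose, by 0.17. *Sfrp2* fell from 174 ± 6.68 to 134 ± 8.88 CPM (log FC -0.37, FDR adjusted P = 1.1e-06). *Sfrp5* was lower by -0.94 at 1.81 ± 0.267 against 3.47 ± 0.127 CPM, and *Wif1* and *Dkk2* were also lower, at -0.33 and -0.18, where *Wif1* lost its call in 7 of 15 alternatives, DESeq2 among them (FDR adjusted P = 0.12). These alternatives include the Y-linked term and the fit without wild-type replicate 3, which are the same check in this line. In the *Pax3* line *Sost* and *Notum* were higher of 14 (14.3%, against 24.5% of all genes tested), by 0.79 and 0.55 on the log2 scale. The *Sost* call was lost in 7 of 15 alternatives, DESeq2 (FDR adjusted P = 0.070) and 4 of the 6 single libraries left out among them, and *Notum* was 0.35 with offsets (FDR adjusted P = 0.076). Both are low, at 2.16 ± 0.522 and 7.71 ± 1.05 CPM in Sp2H/Sp2H embryos, and with offsets the calls of this list were 2 genes lower and 0 higher.

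Inside the cell, *Axin1* and *Apc* were called higher in the *Carm1* line (FDR adjusted P = 0.041 and 0.049) but not by DESeq2, which called none of the 7 genes of the destruction complex. In the *Pax3* line *Gsk3a* rose from 82.3 ± 8.30 to 108 ± 1.75 CPM (log FC 0.40, FDR adjusted P = 3.1e-05, and with offsets 0.21, FDR adjusted P = 0.0041). There *Apc* fell by 0.17 on the log2 scale, but it was not called with offsets, which called 1 gene of this complex higher and 0 lower. Of 11 nuclear partners of TCF/LEF factors none was called in the *Carm1* line by edgeR or DESeq2, with 4 at an unadjusted P under 0.05 and 5 called higher with offsets. In the *Pax3* line the co-repressor gene *Tle2* rose from 36.2 ± 4.07 to 50.0 ± 6.10 CPM (log FC 0.47, FDR adjusted P = 4.5e-04), and the acetyltransferase genes *Ep300* and *Crebbp* were lower by -0.20 and -0.19 on the log2 scale. Neither of those was called with offsets (-0.12 and -0.11, FDR adjusted P = 0.053 and 0.099), where the calls of this list were 2 higher and 0 lower. *Crebbp* was also not called without 4 of the 6 libraries in turn. The nuclear partners called by edgeR in the *Pax3* line are 27.3% of 11, against 24.5% of all genes tested. For the destruction complex the share is 28.6% of 7 in each line, against 13.3% of all genes in the *Carm1* line and 24.5% in the *Pax3* line.

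Of 7 further targets tested, *Nkd2* and *Ccnd1* were called higher and *Myc* lower in the *Carm1* line, and *Bambi* was called higher and *Myc* and *Nkd2* lower in the *Pax3* line. These calls are 42.9% of the 7 in each line, against 13.3% of all genes in the *Carm1* line and 24.5% in the *Pax3* line. *Nkd2*, the paralog of *Nkd1*, rose from 29.5 ± 2.18 to 36.6 ± 0.574 CPM with the loss of *Carm1* (log FC 0.31, FDR adjusted P = 0.0020), and fell from 41.0 ± 1.43 to 35.6 ± 1.86 CPM in the *Pax3* line (log FC -0.20, FDR adjusted P = 0.049). *Nkd1* was thus called higher in both lines and *Nkd2* in opposite directions, though the *Nkd2* call in the *Pax3* line was lost with DESeq2 (FDR adjusted P = 0.052) and with no filter on low counts (FDR adjusted P = 0.071), and without 5 of the 6 libraries in turn. *Myc*, a target in many tissues, fell from 35.7 ± 1.25 to 28.6 ± 2.06 CPM in *Carm1* KO/KO (log FC -0.32, FDR adjusted P = 0.0019) and from 36.8 ± 1.13 to 30.3 ± 2.24 CPM in *Pax3* Sp2H/Sp2H embryos (log FC -0.28, FDR adjusted P = 0.012; 0.095 without Sp2H/Sp2H replicate 1).

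Cadherins and the catenins that bind them made up the last group. All 9 had a negative log FC in the *Pax3* line, with a median of -0.16, and 3 were called lower, namely *Cdh2*, *Cdh11* and *Ctnnd1*; with offsets 2 were. Of all genes tested in this line 24.5% were called and 10.5% were called lower, and 7927 of 15724 had a negative log FC. *Cdh2*, the neural cadherin, fell from 258 ± 16.0 to 214 ± 2.20 CPM (log FC -0.27, FDR adjusted P = 8.1e-04) and *Cdh11* from 340 ± 23.0 to 290 ± 14.7 CPM (log FC -0.23, FDR adjusted P = 0.0068). The *Cdh11* change was -0.12 with offsets (FDR adjusted P = 0.092), and its call was also lost without Sp2H/Sp2H replicate 1 (FDR adjusted P = 0.095). In the *Carm1* line 1 of the 9 was called (11.1%, against 13.3% of all genes tested), *Ctnna1*, which was higher by 0.14 on the log2 scale, and the median was 0.00.

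**Figure D4:**
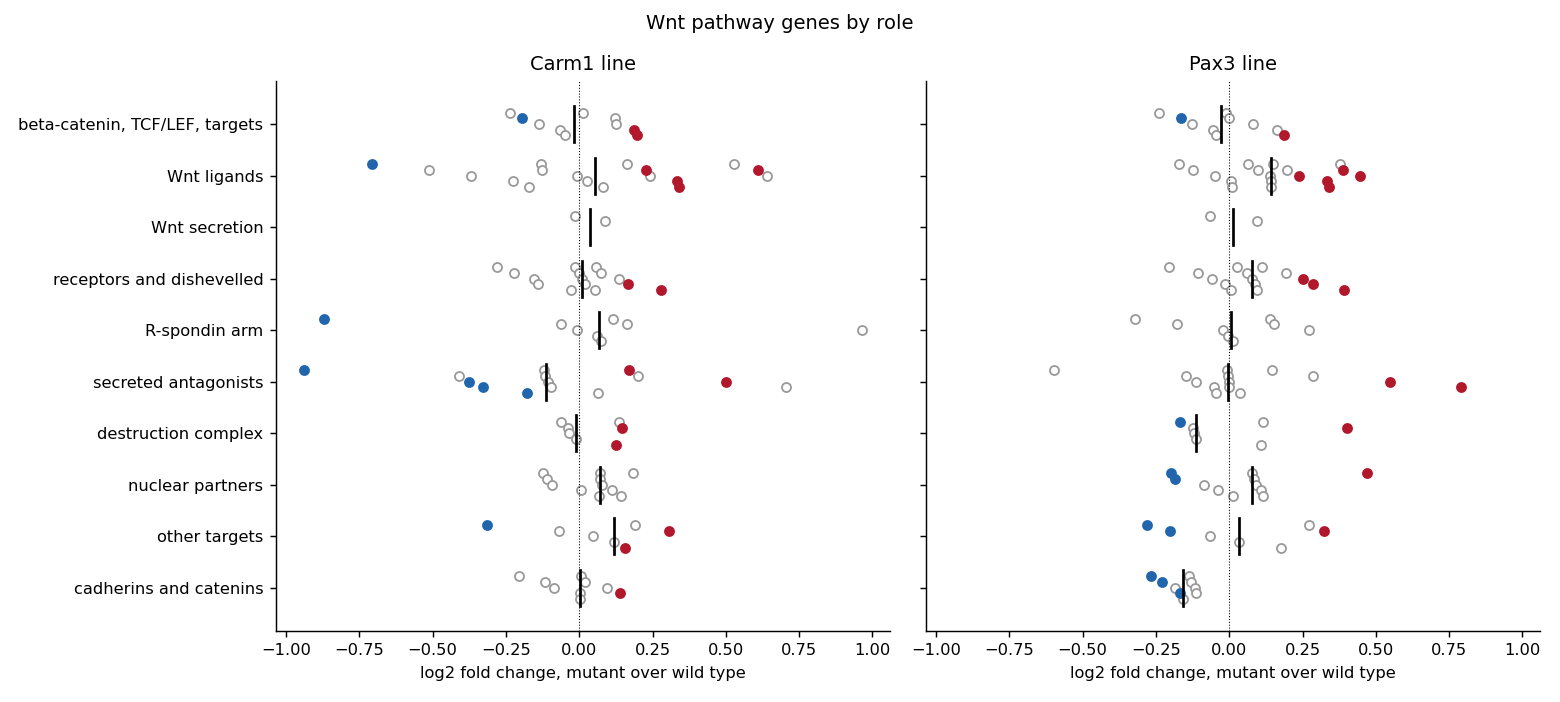
Log FC of the Wnt pathway genes tested, grouped by role, in the *Carm1* line (left) and the *Pax3* line (right); each point is 1 gene, red and blue points were called higher and lower, and black bars are medians. In the *Pax3* line all 9 cadherins and catenins lie below 0, and in the *Carm1* line secreted antagonists are called in both directions (2 higher, 4 lower).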

How the data were processed

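Polyadenylated RNA from 12 whole embryos was sequenced as paired reads of 150 bp. Per the labels and the methods of the study, the authors aligned the reads to mm10 with STAR and made counts on gene exons with featureCounts, and deposited these raw counts, 1 column per library, without normalization or pooling; tool versions and the strand setting are not given in the sources used here. Groups and replicate numbers follow the sample titles. Nothing says that replicates come from separate litters, so the embryos of a group may not be independent. The P values weigh each change against the spread between these embryos only.

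Each line was fitted alone with edgeR 4.0.16 (R 4.3.3): filterByExpr, TMM, robust quasi-likelihood test, Benjamini-Hochberg adjustment over all genes tested, threshold 0.05. The difference between the lines was an interaction term in a fit of all 12 libraries. With 3 libraries a side an exact permutation test of 1 gene cannot go below 0.1, so calls rest on this model. DESeq2 1.42.0 was an alternative, beside RLE and upper-quartile factors, no filter, a minimum of 10 counts, the replicate number as a block, a Y-linked term (at least 100 counts), length and GC offsets (splines with 5 degrees of freedom), 1 fit of 12 libraries and leaving out each library. In the *Carm1* line the Y-linked term marks only wild-type replicate 3, so there it amounts to leaving out that library and is not a separate check. The tests were first tested on simulated data, where the share of calls that fell on unchanged genes exceeded the threshold, so an adjusted P close to it is weaker than its value reads. Positions and transcript lengths come from GENCODE M21 (GRCm38), matched by symbol (21777 as written, 1278 by an older symbol, 365 unmatched).

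The 10 genes, the pathway lists and the marker lists were chosen with earlier results of these data known. Beside these 10, the text names the targeted genes, up to 6 higher and 6 lower called pathway genes per line by size of change (those averaging 1 CPM or more), and the called genes of a list where they number 5 or fewer.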

Additional observations from a re-analysis of the deposited data

Results flagged for a closer look

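Of 32 genes read, the 10 genes and 22 pathway genes named for a large called change in 1 line, 12 passed the interaction test of edgeR over the 12 libraries. All 12 are among the 22, whose choice by their change in 1 line favours a difference from the other line, so their sizes and P values are too favourable; over all 91 pathway genes 24.2% passed, and over all genes 19.1%. Differences are given as the log FC in the *Carm1* line minus that in the *Pax3* line. *Wnt8b* differed by 0.74 (0.61 in the *Carm1* line and -0.12 in the *Pax3* line, FDR adjusted P = 0.0031), *Nkd2* by 0.52 (0.31 and -0.20, FDR adjusted P = 2.5e-04) and *Frzb* by 0.51 (0.50 and -0.00, FDR adjusted P = 0.0011). *Cdh2* differed by 0.30 (0.02 and -0.27, FDR adjusted P = 0.0022), *Ep300* by 0.28 (0.07 and -0.20, FDR adjusted P = 0.0049) and *Cdh11* by 0.24 (0.00 and -0.23, FDR adjusted P = 0.020). In the other direction *Wnt10b* differed by -1.07 (-0.71 and 0.38, FDR adjusted P = 0.0036), *Wnt11* by -0.57 (-0.13 and 0.45, FDR adjusted P = 0.0023) and *Tle2* by -0.55 (-0.09 and 0.47, FDR adjusted P = 8.8e-04). *Gsk3a* differed by -0.43 (-0.03 and 0.40, FDR adjusted P = 2.6e-04), *Sfrp2* by -0.36 (-0.37 and -0.00, FDR adjusted P = 4.2e-04) and *Dvl1* by -0.33 (0.05 and 0.39, FDR adjusted P = 0.0029). The call of *Cdh11* was lost with length and GC offsets (FDR adjusted P = 0.058) and without *Carm1* KO/KO replicate 2, Sp2H/Sp2H replicate 1 or wild-type replicate 1 of the *Pax3* line (FDR adjusted P = 0.078, 0.080 and 0.058), and the other 11 kept it in all 20 alternatives, with *Gsk3a* at -0.24 with offsets. None of the 10 beta-catenin and target genes is among them, at 1 with an unadjusted P under 0.05 and 1 called by DESeq2. Strain and laboratory differ with the line, so these cannot be told apart from the alleles.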

How the results depend on the processing

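Of 150 values per line (10 genes under 15 alternatives), 135 in the *Carm1* line and 130 in the *Pax3* line kept their direction and their side of the threshold, as did 176 of 200 differences between the lines. Most of these are genes that were not called and stayed so. Of the called genes, *Tcf7l2*, *Axin2* and *Nkd1* kept their call in 13, 12 and 13 of 15 alternatives in the *Carm1* line. In the *Pax3* line *Tcf7l1* kept its call in 8 and *Nkd1* in 13 of 15. The 10 genes gave 3 calls in the *Carm1* line, 0 to 3 when 1 library was left out (0 without KO/KO replicate 1). They gave 2 calls in the *Pax3* line, 0 to 2 when 1 library was left out (0 without Sp2H/Sp2H replicates 1 or 3), and 1, *Nkd1*, with DESeq2, with at least 10 counts in every library and with no filter on low counts. The difference between the lines gave 0 calls, and 1 with DESeq2 (*Ctnnb1*), with length and GC offsets (*Tcf7l1*) and with the Y-linked term (*Ctnnb1*). With DESeq2, leaving out libraries was not run.

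The log FC changed sign in these alternatives, always in a value that was not called. In the *Carm1* line *Tcf7* was -0.075 with the Y-linked term and -0.075 to 0.12 when a library was left out, and *Lef1* -0.10 to 0.0057. *Tcf7* in the *Pax3* line was 0.0057 with at least 10 counts in every library and 0.0077 with no filter, and -0.10 to 0.058 when a library was left out. There, with length and GC offsets, *Dkk1* was 0.0038 and *Sp5* -0.076, and *Dkk1* was -0.12 to 0.12 when a library was left out. Of the differences between the lines, *Lgr5* was -0.064 and *Sp5* 0.19 with length and GC offsets, and leaving out a library gave -0.065 to 0.13 for *Tcf7*, -0.031 to 0.035 for *Nkd1*, -0.25 to 0.0047 for *Dkk1*, -0.20 to 0.14 for *Lgr5* and -0.13 to 0.073 for *Sp5*. The cause was not tested. Of the 91 other pathway genes, 13 were called higher and 7 lower in the *Carm1* line, against 25 higher with length and GC offsets and 3 lower with DESeq2; leaving out KO/KO replicates 1, 2 or 3 gave 8, 6 and 8 higher, and leaving out KO/KO replicate 2 or wild-type replicate 2 gave 3 lower. The 8 called lower in the *Pax3* line became 14 in the fit of 12 libraries, 2 and 5 without Sp2H/Sp2H replicates 1 and 3, and 4 and 5 without wild-type replicates 1 and 2.

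The lines share replicate numbers between mutant and wild type, but nothing in the labels ties equal numbers together, and deviations from the group means of same-numbered libraries correlated at -0.042 to 0.00082 in the *Carm1* line and at -0.092 to 0.23 in the *Pax3* line, across genes, which are not independent. The numbers were therefore not taken to pair the libraries. With the replicate block, 3 of the 10 genes were called in the *Carm1* line, 2 in the *Pax3* line and 0 in the difference between the lines, and all genes called numbered 1787, 4177 and 3094 against 2106, 3851 and 3115. *Dkk1* and *Sp5* hold at most 186 reads per library, for which counting alone gives a coefficient of variation of 7.60 to 11.2%; the observed one reached 18.4% for *Dkk1* and 15.5% for *Sp5*, in wild type of the *Pax3* line.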

Other observations

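Among the 91 pathway genes tested, the change differed between the lines in 22 (24.2%, against 19.1% of all genes tested), of which 12 had the higher log FC in the *Carm1* line and 10 in the *Pax3* line. Cadherins and catenins gave 4 of 9, all higher in the *Carm1* line: beside *Cdh2* and *Cdh11* these were *Cdh5*, the cadherin of endothelium (0.29, FDR adjusted P = 0.029), and *Ctnna1*, alpha-catenin (0.28, FDR adjusted P = 0.0025). Receptors and dishevelled genes gave 5 of 15, with *Lrp6* higher in the *Carm1* line (0.19, FDR adjusted P = 0.037) and *Fzd2*, *Fzd9*, *Dvl1* and *Dvl2* higher in the *Pax3* line (-0.27, -0.46, -0.33 and -0.43). In the destruction complex 3 of 7 differed, *Apc* and *Btrc* at 0.30 and 0.27 and *Gsk3a* at -0.43. With offsets 1 gene of this complex was called with the higher log FC in the *Carm1* line and 1 with the lower. Endothelial markers differed in 4 of 5, *Cdh5* among them, all with the higher log FC in the *Carm1* line, and their part in these differences was not tested.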
